A study of Mus musculus with 8 samples.

Results

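The levels of 10 genes of bile acid synthesis, conjugation, uptake and regulation were followed in mouse liver at 5 weeks of age, with 5 Stab1 knock-out and 3 wild-type libraries. The members were taken by symbol from the 19348 gene identifiers of the count table, and all 10 were found, each with 1 identifier. They are Cyp7a1, Cyp8b1, Cyp27a1, Cyp7b1, Baat, Slc27a5, Slc10a1, Slco1b2, Nr1h4 and Nr0b2. Both groups are labelled liver tissue of the same age and differ in the labels by the Stab1 genotype alone. The product of Stab1, stabilin-1, is a scavenger receptor found on the endothelium of liver sinusoids and on macrophages, so the targeted gene belongs to cells other than the hepatocytes that make bile acids. The labels name neither the strain, the kind of Stab1 allele, the sex and feeding state of the mice nor the hour of sampling.

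Bile acids are made from cholesterol in hepatocytes. In the classical pathway Cyp7a1 adds the first hydroxyl group, and Cyp8b1 then decides how much of the product becomes cholic acid. The alternative pathway opens with Cyp27a1 and continues through Cyp7b1. Slc27a5 and Baat join finished bile acids to coenzyme A and then to an amino acid, and Slc10a1 and Slco1b2 bring bile acids back from the portal blood. Nr1h4 (FXR) is the nuclear receptor that senses bile acids, and one of its targets is Nr0b2 (SHP), a corepressor that lowers Cyp7a1 and Cyp8b1 transcription. Cyp7a1 also follows the clock and feeding, and Cyp7b1 is known as a gene with higher expression in male than in female mouse liver.

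Library totals were 4.85 to 10.5 M (mega) uniquely mapped reads in knockout and 10.1 to 10.8 M in wild-type liver. Values are CPM (counts scaled to the TMM-adjusted library size, TMM being edgeR's trimmed-mean scaling) unless RPKM (reads scaled to gene length and library total) is named. As a check of the labels, Stab1 averaged 1.22 ± 0.378 CPM over knockout libraries (SD, n = 5) and 51.0 ± 4.52 CPM over wild-type libraries (SD, n = 3). Knockout library 1 stood apart from the others. It held 3 reads of Xist, the noncoding RNA of the inactive X chromosome, where the other libraries held 4445 to 8222, and 320 reads of Ddx3y, a gene of the Y chromosome, where the others held 0 to 4. The summed level of 9 male-biased liver genes was 20128 CPM in that library, 2822 to 5805 CPM in the other knockout libraries and 3541 to 5223 CPM in wild-type libraries. The sum of 10 female-biased genes was 6.45 CPM there, 1799 to 2192 CPM in the other knockout and 1468 to 2568 CPM in wild-type libraries. Wild-type library 3 also differed from the other wild-type libraries, with a chi-square per degree of freedom of 44.8 against wild-type library 2 and 49.4 against library 1 over 13074 and 13101 genes, where wild-type libraries 1 and 2 differed from each other by 10.7 over 13064 genes. The same measure was 60.8 to 79.2 between knockout library 1 and each other knockout library and 16.3 to 39.6 among the other 4, whose widest pair, libraries 2 and 3, came near the values of wild-type library 3. The median share of gene length covered by reads, over 4991 genes with a mean of 20 to 200 CPM, was 86%, 89.5%, 92.9%, 90.6% and 90.5% in knockout libraries 1 to 5, against 93.8%, 93.9% and 91.6% in wild-type libraries 1 to 3. Results are therefore given with all libraries and without these ones.

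All 8 hepatocyte markers were present, with a summed level of 66872 to 123861 CPM in knockout and 138186 to 150829 CPM in wild-type libraries, a sum carried largely by Alb. The 8 cholangiocyte markers, which would come from bile ducts, summed to 78.8 to 144 CPM in knockout and 76.3 to 91.2 CPM in wild-type libraries. The 6 sinusoidal endothelial markers, without Stab1, summed to 193 to 220 CPM in knockout and 248 to 300 CPM in wild-type libraries. The hepatocyte and endothelial sums were lower in every knockout library than in every wild-type library. Of the single hepatocyte markers this held for Alb only, at 46519 to 103809 CPM in knockout and 117992 to 130364 CPM in wild-type libraries. The groups of every other hepatocyte marker overlapped, with log2 fold changes of both signs, so the lower sum does not describe that list as a whole. Each endothelial marker had overlapping groups with all libraries, but all 6 log2 fold changes were negative, from -0.76 for Kdr to -0.16 for Clec4g. Without knockout library 1, Stab2 and Kdr were lower in every knockout than in every wild-type library, as were 8.82% of all tested genes. In that fit edgeR called 0 of these 6 markers. With all libraries edgeR called 0 of 8, 0 of 7 and 0 of 6 tested genes of these 3 lists. Among the cholangiocyte markers Slc10a2, the apical sodium-dependent bile acid transporter, had only 14, 9, 3, 3 and 4 reads in knockout libraries 1 to 5, against 46, 45 and 13 reads in wild-type libraries 1 to 3. Among 7 tested markers of this list it alone fell in the edgeR fit without knockout library 1 (-2.67 in log2, SE 0.53, adjusted p = 0.0473), a fit in which 0.928% of all tested genes were called, and was chosen after its values were seen. Others of the list had higher values in that fit, and the groups of Spp1 (0.88, SE 0.18, edgeR adjusted p = 0.054) and Krt7 (1.44, SE 0.40, adjusted p = 0.0836) did not overlap. The ileal bile acid binding gene Fabp6 and the pancreatic genes Cpa1, Prss1 and Cel had 0 reads in every library, as had Cdh17 of the ileal list. The 5 ileal genes with a row summed to 188 to 679 CPM in knockout and 325 to 525 CPM in wild-type libraries, mostly Apoa4, which liver also expresses. The 5 pancreatic genes with a row summed to 37.2 to 83.9 CPM in knockout and 23.7 to 32.4 CPM in wild-type libraries, nearly all of it Cela1, and Pnlip had at most 2 reads. Cela1 was higher in every knockout library than in every wild-type library (log2 fold change 0.87, SE 0.27, edgeR adjusted p = 0.321). In whole tissue, fewer cells of a type and less RNA per cell cannot be told apart. The part of these marker levels in the results below was not tested.

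With all 8 libraries, none of the 10 bile acid genes differed between knockout and wild-type liver at an adjusted p below 0.05. The edgeR quasi-likelihood test called 0 of 10, where it called 0.227% of 12337 tested genes, and DESeq2 called 0 of 9, where it called 0.884% of genes. DESeq2 gave no adjusted p for Cyp7b1 in that fit. At an unadjusted p below 0.05 edgeR again passed 0 of 10, where 1679 of the 12337 tested genes passed. All 10 genes passed the filter on low counts, with 115 to 19048 reads per library. Their log2 fold changes, knockout over wild type, ran from -0.60 for Cyp7a1 to 1.01 for Cyp7b1, with 5 positive and 5 negative and a median of -0.03, beside -0.01 over all tested genes. The adjusted p-values of edgeR lay between 0.38 and 0.841. These figures describe wide spreads for some members, and a p above the threshold does not show that levels were alike.

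**Figure D1:**
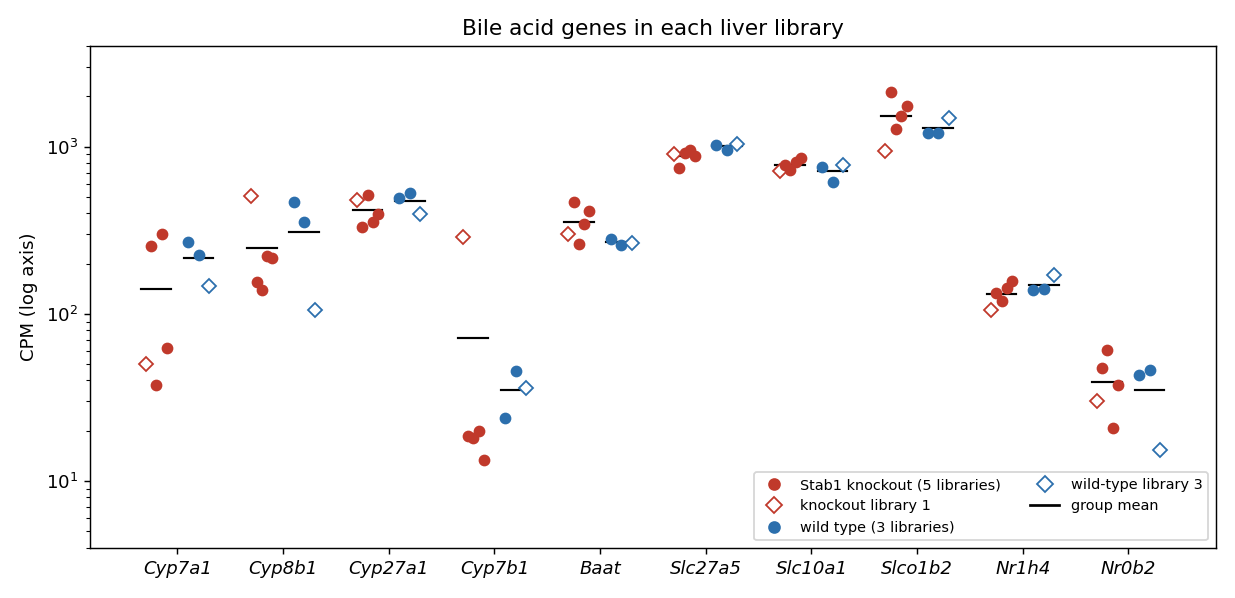
CPM (log axis) of the 10 bile acid genes in each of 5 Stab1 knockout libraries (red) and 3 wild-type libraries (blue), with black bars at group means and open diamonds for knockout library 1 and wild-type library 3. Cyp7b1 was at 289 CPM in knockout library 1 and at 13.3 to 19.9 CPM in the other knockout libraries, below the wild-type range of 23.9 to 45.7 CPM.

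Per length, the members kept nearly the same order of levels in both genotypes, with transporters and the coenzyme A ligase on top. In knockout liver Slc10a1 averaged 464 ± 25.1 RPKM, Slco1b2 459 ± 123 RPKM and Slc27a5 378 ± 41.2 RPKM (SD, n = 5), and the ranges of neighbours in this order overlapped. In wild-type liver Slc27a5 averaged 427 ± 14.4 RPKM, Slc10a1 426 ± 48.5 RPKM and Slco1b2 391 ± 45.8 RPKM (SD, n = 3), again with overlapping ranges. Cyp27a1 came next in both groups, at 221 ± 47.7 RPKM in knockout and 248 ± 38.1 RPKM in wild-type liver, and its range lay below that of the third gene in each group. Baat at 181 ± 36.9 RPKM and Cyp8b1 at 129 ± 83.4 RPKM followed in knockout liver, whereas Cyp8b1 at 157 ± 94.2 RPKM and Baat at 136 ± 6.07 RPKM followed in wild-type liver. Their ranges overlapped in each group. Nr1h4 averaged 59.9 ± 7.58 RPKM in knockout and 68.0 ± 7.52 RPKM in wild-type liver. Its range lay below those of Baat and Cyp8b1 in knockout liver, and below that of Baat in wild-type liver, where it overlapped that of Cyp8b1, at 62.5 to 76.6 RPKM for Nr1h4 and 53.1 to 236 RPKM for Cyp8b1. The ranges of neighbours among Nr0b2, Cyp7a1 and Cyp7b1 overlapped in both groups, and Cyp7a1 averaged 33.6 ± 29.8 RPKM in knockout and 51.2 ± 15.0 RPKM in wild-type liver. By these means the enzyme that opens the classical pathway had a lower mRNA level per length than Cyp27a1 in each genotype.

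The members divided into 4 genes that varied widely between libraries and 6 that varied less. Over the 8 libraries the highest level was 21.8 times the lowest for Cyp7b1, 7.93 times for Cyp7a1, 4.83 times for Cyp8b1 and 3.96 times for Nr0b2. These ratios exceeded those of 95.6% to 99.4% of 7913 genes with a mean of at least 10 CPM, whose median ratio was 1.72. Without knockout library 1 the Cyp7b1 ratio was 3.44, which still exceeded 95.5% of 7923 genes, and the other 3 genes exceeded 96.9% to 99.2%. In contrast, the ratio was 1.38 for Slc27a5, 1.39 for Slc10a1, 1.58 for Cyp27a1, 1.61 for Nr1h4, 1.81 for Baat and 2.25 for Slco1b2.

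Cyp7a1 (identifier 13122), the rate-limiting 7-alpha-hydroxylase of the classical pathway, was split into high and low libraries within the knockout group. It had 50.1, 255, 37.8, 300 and 62.1 CPM in knockout libraries 1 to 5, against 270, 226 and 147 CPM in wild-type libraries 1 to 3. Knockout libraries 2 and 4 thus lay at or near the level of the highest wild-type libraries, and the other 3 knockout libraries lay below every wild-type library. Cyp7a1 averaged 141 ± 126 CPM over knockout libraries (SD, n = 5) and 215 ± 62.2 CPM over wild-type libraries (SD, n = 3), and the edgeR log2 fold change came to -0.60 (SE 0.64, adjusted p = 0.662). Single omissions moved it between -1.08 without knockout library 4 and -0.36 without knockout library 3, and the median coverage of each library as a covariate (added once the values were known) gave -0.17 (SE 1.08). Within knockout liver the highest Cyp7a1 level was 7.93 times the lowest, and within wild-type liver 1.83 times. Reads covered 88.1% to 99.9% of the gene in every library, with the lowest share in knockout library 1. This share does not tell how evenly reads lay along the gene, and its part in the low values was not tested.

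Among 7642 other genes with a mean of at least 10 CPM, those most like Cyp7a1 across the 8 libraries were Mmd2, Pde4b and Acnat2. Likeness was the root mean square difference of log2 CPM after centring, which was 0.72, 0.77 and 0.79 for these genes, beside a median of 1.17 over the candidates. Even the closest of them did not follow Cyp7a1 well, as Mmd2 was at 11.4 and 20.7 CPM in knockout libraries 2 and 4 and at 50.3 CPM in wild-type library 1.

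Cyp8b1 (identifier 13124), the sterol 12-alpha-hydroxylase, had 1 library in each group on the far side of the other group. It had 508, 156, 139, 221 and 216 CPM in knockout libraries 1 to 5, against 464, 353 and 105 CPM in wild-type libraries 1 to 3. Knockout library 1 was the highest of all 8, wild-type library 3 was the lowest, and the other 4 knockout libraries lay between wild-type libraries 2 and 3. The log2 fold change was -0.31 (SE 0.50, edgeR adjusted p = 0.773) with all libraries, and -0.76 (SE 0.39, adjusted p = 0.249) without knockout library 1. Without wild-type library 1 it was 0.11 (SE 0.56, adjusted p = 0.959). Without knockout library 1 and wild-type library 3 together it was -1.15 (SE 0.21, adjusted p = 0.00926), a fit in which 19.9% of all tested genes were called. The genes most like Cyp8b1 across libraries were Ston2, Oasl1 and Ddc, with root mean square differences of 0.29, 0.32 and 0.34 log2 units, beside a median of 0.82. Ddc, which encodes aromatic amino acid decarboxylase, was at 106 CPM in knockout library 1 and 47.5 to 52.6 CPM in the other knockout libraries, against 117, 143 and 34.5 CPM in wild-type libraries 1 to 3.

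In the alternative pathway, Cyp27a1 (identifier 104086), the mitochondrial sterol 27-hydroxylase, had overlapping levels in the 2 groups. It had 480, 332, 515, 353 and 398 CPM in knockout libraries 1 to 5, against 492, 525 and 394 CPM in wild-type libraries 1 to 3. The ranges overlapped, and the log2 fold change was -0.18 (SE 0.19, edgeR adjusted p = 0.659).

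Cyp7b1 (identifier 13123), the oxysterol 7-alpha-hydroxylase, gave opposite directions with and without knockout library 1. It had 289, 18.7, 18.0, 19.9 and 13.3 CPM in knockout libraries 1 to 5, against 23.9, 45.7 and 35.9 CPM in wild-type libraries 1 to 3. Knockout library 1 was far above every other library, and the other 4 knockout libraries were all below every wild-type library. In the 7 libraries without it, knockout values all lay below wild-type values in 8.82% of tested genes, and groups did not overlap in either direction in 18.2%. Of the members these were Cyp7b1 and Slc27a5, 2 of 10. With all libraries the log2 fold change was 1.01 (SE 1.02, edgeR adjusted p = 0.647). Without knockout library 1 Cyp7b1 averaged 17.5 ± 2.91 CPM over knockout libraries (SD, n = 4) and 35.2 ± 10.9 CPM over wild-type libraries (SD, n = 3), and edgeR fitted a log2 fold change of -1.01 (SE 0.22, unadjusted p = 9.09e-04, adjusted p = 0.0667). The edgeR call was thus missed in that fit, in which 0.928% of tested genes were called. Without that library DESeq2, run in this way only after the data were seen, gave -1.01 (SE 0.25, adjusted p = 0.00323) and called 1 of 10 members, beside 8.62% of all genes. Without wild-type library 3 as well, edgeR gave -0.99 (SE 0.25, adjusted p = 0.0225). With all libraries and coverage as a covariate it gave -1.94 (SE 0.72, adjusted p = 0.59).

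The genes most like Cyp7b1 over the 8 libraries were Selenbp2, C6 and Lcn2, with root mean square differences of 0.30, 0.31 and 0.44 log2 units beside a median of 1.33. All were highest in knockout library 1, at 1013 CPM for Selenbp2, 250 CPM for C6 and 86.3 CPM for Lcn2. In the other knockout libraries Selenbp2 was at 34.7 to 66.4 CPM and C6 at 10.9 to 14.9 CPM, against 67.3 to 146 CPM and 17.9 to 23.3 CPM in wild-type libraries. Lcn2 was at 6.46 to 12 CPM in the other knockout libraries, against 10.1 to 12.7 CPM in wild-type libraries, so its groups overlapped. Every library other than knockout library 1 held at least 4445 Xist reads, but 1 gene of each sex-biased list was called among those 7 libraries. In the fit of these libraries edgeR called 1 of 8 tested male-biased genes, Elovl3, a fatty acid elongase, at 1.73 to 2.56 CPM in knockout and 4.91 to 10.8 CPM in wild-type libraries (-1.77 in log2, SE 0.29, adjusted p = 0.0261). Of 10 female-biased genes 1 was called, Cyp3a41a, at 0.223 to 1.27 CPM in knockout and 6.17 to 7.27 CPM in wild-type libraries (-3.33 in log2, SE 0.37, adjusted p = 0.00343). Both were thus lower in knockout liver, and their part in the Cyp7b1 values was not tested. No other tested gene of either list was called in that fit, in which 0.928% of all tested genes were called.

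**Figure D2:**
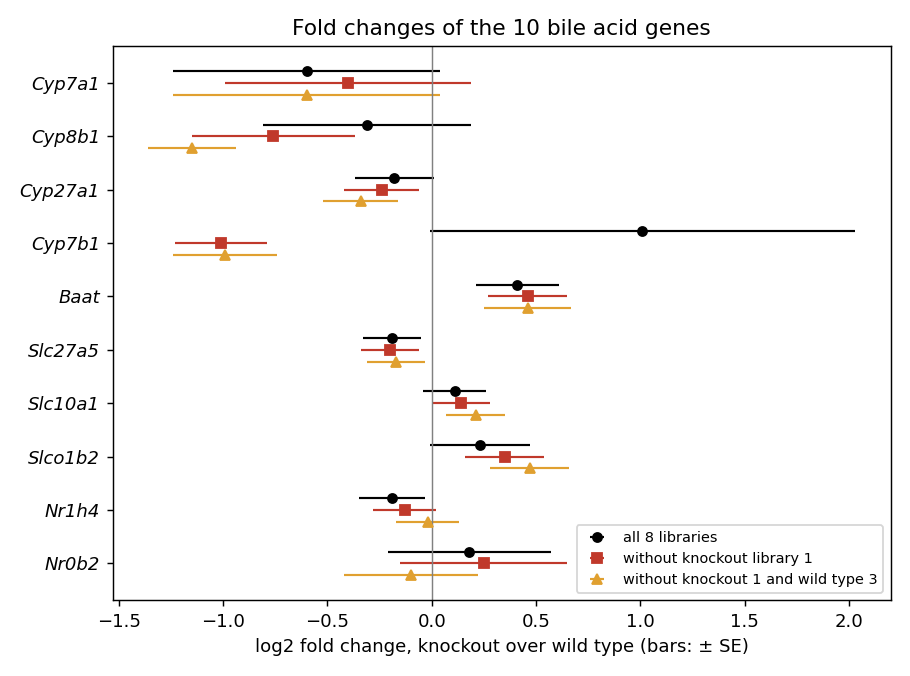
Log2 fold changes of the 10 bile acid genes, knockout over wild type, with bars of ± SE from edgeR, for all 8 libraries (black circles), without knockout library 1 (red squares) and without knockout library 1 and wild-type library 3 (yellow triangles). Cyp7b1 was at 1.01 with all libraries and at -1.01 and -0.99 in the other fits, while Cyp8b1 was at -0.31, -0.76 and -1.15.

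Ratios between the enzymes, which do not depend on the scaling of libraries, did not separate the genotypes. The log2 ratio of Cyp7a1 to Cyp7b1, in RPKM, was -3.47, 2.82, 0.12, 2.97 and 1.28 in knockout libraries 1 to 5, against 2.55, 1.36 and 1.09 in wild-type libraries 1 to 3. Cyp7a1 exceeded Cyp7b1 in every library but knockout library 1. The mean difference, knockout minus wild type, was -0.93 (exact two-sided permutation p = 0.696 over 56 divisions, adjusted over 3 ratios 0.696), and without knockout library 1 it was 0.13. The ratio of Cyp8b1 to Cyp7a1 averaged 2.27 ± 1.71 in knockout (SD, n = 5) and 1.41 ± 0.70 in wild-type liver (SD, n = 3) on the log2 scale (exact permutation p = 0.5, adjusted 0.696). The ratio of Cyp27a1 to Cyp7a1 averaged 3.21 ± 1.65 in knockout (SD, n = 5) and 2.31 ± 0.28 in wild-type liver (SD, n = 3) (exact permutation p = 0.393, adjusted 0.696). The difference, knockout minus wild type, was 0.86 for Cyp8b1 to Cyp7a1 with all libraries and 0.32 without knockout library 1, and for Cyp27a1 to Cyp7a1 it was 0.90 with all libraries and 0.60 without that one. Both of these ratios were low in knockout libraries 2 and 4 and high in knockout libraries 1, 3 and 5, the libraries with little Cyp7a1. The smallest p the 56 divisions allow is 0.0179.

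**Figure D3:**
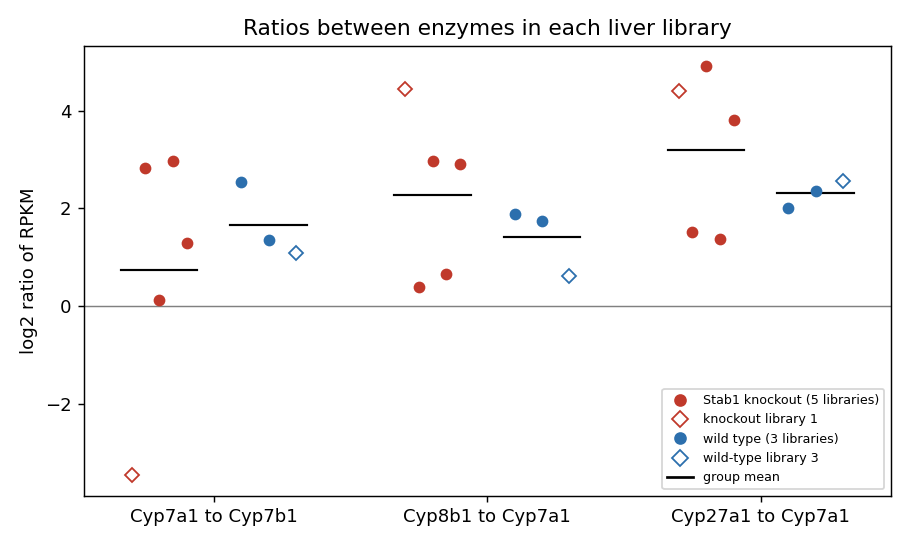
Log2 ratio of RPKM values for 3 pairs of enzymes in each of 5 knockout (red) and 3 wild-type (blue) libraries, with black bars at group means and open diamonds for knockout library 1 and wild-type library 3. The groups overlapped for every pair, and the Cyp7a1 to Cyp7b1 ratio of knockout library 1, at -3.47, was the lowest.

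Of the conjugation enzymes, Slc27a5 (identifier 26459), the bile acid coenzyme A ligase, had 899, 748, 921, 952 and 881 CPM in knockout libraries 1 to 5, against 1021, 954 and 1035 CPM in wild-type libraries 1 to 3. Every knockout library lay below every wild-type library, though by 952 against 954 CPM at the nearest point. It was the only 1 of the 10 members whose groups did not overlap with all libraries, where 6.65% of tested genes had groups that did not overlap. Its log2 fold change was -0.19 (SE 0.14, edgeR adjusted p = 0.518), and without knockout library 1 it was -0.20.

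Baat (identifier 12012), which joins bile acids to an amino acid, had 302, 465, 262, 343 and 411 CPM in knockout libraries 1 to 5, against 282, 257 and 264 CPM in wild-type libraries 1 to 3. Only knockout library 3 lay within the narrow wild-type range, and the other 4 lay above it. The log2 fold change of 0.41 (SE 0.20) had the smallest p of the members, unadjusted 0.064 and adjusted 0.38 in edgeR. Leaving out knockout library 1 gave 0.46 (SE 0.19, adjusted p = 0.17).

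The uptake transporters were abundant in all libraries. Slc10a1 (identifier 20493), the sodium-dependent taurocholate carrier, had 710, 781, 725, 809 and 856 CPM in knockout libraries 1 to 5, against 760, 617 and 778 CPM in wild-type libraries 1 to 3. The groups overlapped, with an edgeR log2 fold change equal to 0.11 (SE 0.15, adjusted p = 0.716). Slco1b2 (identifier 28253), the sodium-independent carrier of the OATP family, had 943, 2123, 1270, 1514 and 1752 CPM in knockout libraries 1 to 5, against 1203, 1204 and 1485 CPM in wild-type libraries 1 to 3. Knockout library 1 was the lowest of all, and knockout libraries 2, 4 and 5 lay above every wild-type library. The log2 fold change was 0.23 (SE 0.24, edgeR adjusted p = 0.662), and 0.35 (SE 0.19, adjusted p = 0.254) without knockout library 1.

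Among the regulators, Nr1h4 (identifier 20186), the bile acid receptor, was even across libraries. It had 106, 133, 119, 142 and 157 CPM in knockout libraries 1 to 5, against 138, 141 and 170 CPM in wild-type libraries 1 to 3, with overlapping groups and an edgeR log2 fold change equal to -0.19 (SE 0.16, adjusted p = 0.586). Nr0b2 (identifier 23957), the corepressor induced by that receptor, had 30.1, 47.6, 60.7, 20.9 and 37.5 CPM in knockout libraries 1 to 5, against 43.0, 46.4 and 15.3 CPM in wild-type libraries 1 to 3. Wild-type library 3 was the lowest of all 8, and the groups overlapped (log2 fold change 0.18, SE 0.39, edgeR adjusted p = 0.841). Its sign turned with single libraries, to -0.03 without knockout library 3 and -0.18 without wild-type library 3. The levels of Nr0b2 and Cyp7a1 showed no single pattern across libraries. Knockout library 3 had the highest Nr0b2 beside the lowest Cyp7a1, and knockout library 4 had little Nr0b2 beside the highest Cyp7a1. In contrast, wild-type library 3 had the lowest Nr0b2 beside the lowest wild-type Cyp7a1, knockout library 1 was among the lower libraries in both, and knockout library 2 and wild-type library 1 were high in both.

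Cyp8b1 and Nr0b2 are known targets of the nuclear receptor LRH-1, the product of Nr5a2, and are both among the members that varied most, so the 300 bases around their RefSeq start sites (250 before and 50 after, build GRCm38.p6) are shown. Capitals mark the half-site CAAGGNC of that receptor family, searched on both strands together with the general half-site AGGTCA, whose first 5 letters can be the last 5 of the other motif. RefSeq windows of 6 of the 10 members were searched. Cyp7a1 and Cyp7b1, which varied more, had no window and could not be searched, nor could Baat and Slc27a5.
Cyp8b1, chr9:121916256-121916555, minus strand: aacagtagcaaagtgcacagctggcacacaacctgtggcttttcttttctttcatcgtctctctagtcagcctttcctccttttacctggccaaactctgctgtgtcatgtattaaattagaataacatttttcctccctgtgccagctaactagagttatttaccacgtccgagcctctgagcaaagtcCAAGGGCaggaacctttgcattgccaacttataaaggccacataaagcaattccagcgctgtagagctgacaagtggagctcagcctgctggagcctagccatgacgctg
Nr0b2, chr4:133553126-133553425, plus strand: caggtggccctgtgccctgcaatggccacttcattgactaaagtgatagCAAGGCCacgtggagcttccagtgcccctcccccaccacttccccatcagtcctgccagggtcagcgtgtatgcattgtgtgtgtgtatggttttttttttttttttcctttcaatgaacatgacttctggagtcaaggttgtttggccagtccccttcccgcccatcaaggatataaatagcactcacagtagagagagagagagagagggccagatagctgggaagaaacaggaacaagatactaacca
Each window held 1 match to CAAGGNC on the gene's own strand, starting 60 bases before the start site in Cyp8b1 and 201 before it in Nr0b2, and no AGGTCA. Of 32851 promoter windows of this length, 17.8% held CAAGGNC and 16.3% held AGGTCA. Of 2 windows of Slc10a1, 1 held AGGTCA, as did those of Slco1b2 and Nr1h4, and the window of Cyp27a1 held neither. A match describes letters in these windows, not binding. The windows come from RefSeq, as the build behind the counts is not given in the sources used here.

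A further 39 genes of the pathway were listed by role, and 35 of them were tested. With all libraries edgeR called 0 of 35, beside 0.227% of all genes, and DESeq2 called 0 of 35, beside 0.884%. An unadjusted edgeR p below 0.05 was found for 7 of 35, beside 13.6% of all tested genes. Ch25h, Slc51a and Gpbar1 had at most 1 read in any library and were not tested, and Fgf15 was not analysed here. The median log2 fold change was 0.08 over 13 other synthesis genes, -0.01 over 11 transport genes and -0.24 over 11 regulators, beside -0.01 over all tested genes.

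Of the other synthesis genes 10 had positive and 3 negative log2 fold changes, beside 6055 positive and 6282 negative among all tested genes. Scp2, whose longer product is the thiolase that shortens the bile acid side chain, had 5069, 4033, 3191, 3105 and 3703 CPM in knockout libraries 1 to 5, against 2461, 2664 and 2881 CPM in wild-type libraries 1 to 3. Every knockout library lay above every wild-type library, which 3.04% of all tested genes also showed. Its log2 fold change was 0.52 (SE 0.19, edgeR adjusted p = 0.333), and 0.18 (SE 0.18) with coverage as a covariate. Cyp39a1, the 7-alpha-hydroxylase of 24-hydroxycholesterol, was at 39.9 ± 9.63 CPM over knockout libraries (SD, n = 5) and 55.3 ± 6.38 CPM over wild-type libraries (SD, n = 3), with overlapping groups and an edgeR log2 fold change equal to -0.47 (SE 0.20, adjusted p = 0.356). With coverage as a covariate it was -0.07 (SE 0.18). Hsd3b7, which acts right after the first hydroxylation, was at 866 ± 90.3 CPM over knockout libraries (SD, n = 5) and 713 ± 115 CPM over wild-type libraries (SD, n = 3; edgeR adjusted p = 0.437).

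Among transporters, Abcc2, the canalicular exporter of conjugated organic anions, had 238, 124, 220, 130 and 227 CPM in knockout libraries 1 to 5, against 381, 335 and 237 CPM in wild-type libraries 1 to 3. Only knockout library 1 reached the wild-type range, by 238 against 237 CPM. The log2 fold change was -0.76 (SE 0.26, edgeR adjusted p = 0.331) with all libraries. Ephx1, the microsomal epoxide hydrolase, was at 195 ± 46.2 CPM over knockout libraries (SD, n = 5) and 263 ± 12.5 CPM over wild-type libraries (SD, n = 3), and edgeR fitted -0.43 on the log2 scale (SE 0.19, adjusted p = 0.365). Abcb11, the canalicular bile salt export pump, was at 961 ± 145 CPM over knockout libraries (SD, n = 5) and 779 ± 183 CPM over wild-type libraries (SD, n = 3; edgeR adjusted p = 0.48).

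Slco1a4, a basolateral OATP carrier of bile acids and drugs, was the 1 pathway gene called by edgeR without knockout library 1, and was chosen after its values were seen. It had 38.1, 185, 139, 186 and 196 CPM in knockout libraries 1 to 5, against 86.9, 60.3 and 93.0 CPM in wild-type libraries 1 to 3. Knockout library 1 was the lowest of all 8, and the other 4 knockout libraries lay above every wild-type library, as in 9.39% of all tested genes. Without knockout library 1 it rose by 1.13 on the log2 scale (SE 0.19, edgeR adjusted p = 0.027), to 176 ± 25.3 CPM over knockout libraries (SD, n = 4), against 80.0 ± 17.4 CPM over wild-type libraries (SD, n = 3). In that fit it was 1 of 35 listed genes, beside 0.928% of all tested genes. With all libraries the log2 fold change was 0.90 (SE 0.43, edgeR adjusted p = 0.38), and 1.47 (SE 0.51, adjusted p = 0.59) with coverage as a covariate. Its relative Slco1a1, which also stands on the list of male-biased genes, was at 592 CPM in knockout library 1 and 144 to 424 CPM in the other knockout libraries, against 272 to 381 CPM in wild-type libraries.

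Of the 11 regulators 8 had negative log2 fold changes, beside 6282 of all 12337 tested genes, and 0 were called. Mafg, a small Maf protein that represses bile acid synthesis genes, had 27.8, 18.8, 27.5, 18.4 and 26.1 CPM in knockout libraries 1 to 5, against 32.0, 31.4 and 32.5 CPM in wild-type libraries 1 to 3. All knockout libraries lay below all wild-type libraries, as they did in 3.62% of tested genes, and the log2 fold change was -0.43 (SE 0.17, edgeR adjusted p = 0.341). Nr5a2, which encodes LRH-1, an activator of Cyp7a1 and Cyp8b1, had 24.3, 25.9, 40.1, 31.7 and 29.1 CPM in knockout libraries 1 to 5, against 53.4, 42.1 and 32.2 CPM in wild-type libraries 1 to 3. Only knockout library 3 lay inside the wild-type range and the others lay below it (log2 fold change -0.49, SE 0.20, edgeR adjusted p = 0.349). Its value was -0.29 without wild-type library 1 and -0.12 (SE 0.21) with coverage as a covariate. For the receptor pair of the intestinal hormone FGF15 the log2 fold changes were -0.30 for Fgfr4 (SE 0.22, edgeR adjusted p = 0.509) and -0.16 for Klb (SE 0.17, adjusted p = 0.67).

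**Figure D4:**
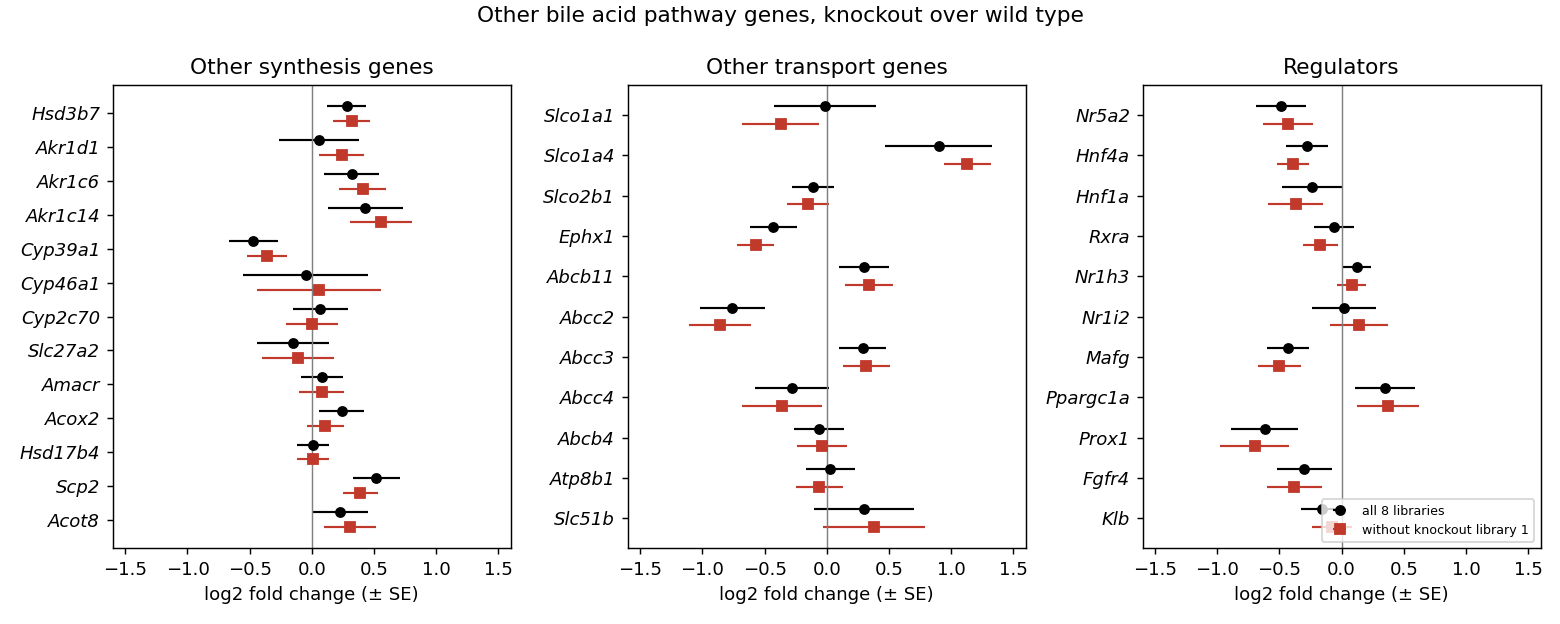
Log2 fold changes, knockout over wild type, with bars of ± SE from edgeR, of the 35 other tested bile acid pathway genes in 3 panels by role, for all 8 libraries (black circles) and without knockout library 1 (red squares). Slco1a4 had the largest positive value in both fits, 0.90 and 1.13, and Abcc2 the largest negative one, -0.76 and -0.86.

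When knockout library 1 and wild-type library 3 were both left out, more of the pathway was called, as was more of the genome. Of the members 2 of 10 were called, Cyp8b1 and Cyp7b1, both lower in knockout liver, beside 19.9% of 12481 tested genes, so their share was that of the background. Of the other pathway genes 7 of 35 were called, again a share like the background. Slco1a4 (1.26), Akr1c6 (0.61), a hydroxysteroid dehydrogenase, and Abcc3 (0.53), a basolateral exporter, were higher in log2 fold change, and Abcc2 (-1.02), Prox1 (-0.95), Ephx1 (-0.59) and Hnf4a (-0.43) were lower in knockout liver. Prox1 and Hnf4a encode transcription factors of hepatocytes, and these genes were chosen after their values were seen. This fit compares 4 knockout with 2 wild-type libraries.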

How the data were processed

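Messenger RNA was sequenced from 5 Stab1 knock-out and 3 wild-type liver libraries, which the sample titles assign to groups. Per the labels' protocols, RNA came from a column kit and BGI prepared Illumina libraries. Which aligner, counter, build, annotation and strand setting were used was not given in the sources used here. Each deposited table row holds, per the file headers, the count of uniquely mapped reads, the percent of gene length covered (coverage) and the RPKM of each gene and library. RPKM equalled the values recomputed from counts and lengths. A dash was read as 0, rows sharing an identifier were summed, and 4 rows that name no gene (at most 0.00019% of reads) were left out.

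The counts were tested in R 4.3.3 with edgeR 4.0.16 (filterByExpr, TMM scaling, quasi-likelihood F test, no covariate) over 12337 genes, with Benjamini-Hochberg adjustment over all of them and a threshold of 0.05. An SE is the log2 fold change over the square root of F. DESeq2 1.42.0 was an alternative. Ratios of RPKM were tested by exact permutation over the libraries. The gene-wise tests were checked on simulated counts. Figures were drawn with matplotlib 3.10.9.

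A floor of 3 reads was 0.587 CPM in knockout library 1 and 0.276 to 0.346 CPM in the others, counting error only. The labels do not tie libraries to separate animals, so p-values reflect the spread between libraries, which may be technical. Every pair of libraries of a group differed by more than sampling noise. Members and lists were chosen with earlier results of these data known. All members were described, and in each of 3 pathway lists the called genes, or else the 2 tested genes with the smallest p, were named. For Cyp7a1, Cyp8b1 and Cyp7b1 the 3 genes most alike were named. Other genes were chosen after their values were seen. Promoter windows came from RefSeq (GRCm38.p6).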

Additional observations from a re-analysis of the deposited data

Results flagged for a closer look

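In the knockout group of 5 libraries, 3 values lay farther from the rest than Dixon's 95% limit allows, among 22 measures examined. Chance alone sets off this flag in about 1 in 20 groups. Cyp8b1 in knockout library 1 was at 508 CPM, where the other knockout libraries reached at most 221 CPM. Cyp7b1 in knockout library 1 was at 289 CPM, where the others reached at most 19.9 CPM. Stab1 in knockout library 2 was at 0.557 CPM, where the others held at least 1.27 CPM, a difference of 5 against 7 to 16 reads.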

How the results depend on the processing

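No member was called with any single library left out, with the replicate number as a block, with median-of-ratios scaling, without the filter or with coverage evenness as a covariate. DESeq2 with all libraries called none of 9 and gave Cyp7b1 no adjusted p. Without knockout library 1 and wild-type library 3 together, 2 members and 7 other pathway genes were called, among 2482 genes in all. That fit gave -0.99 for Cyp7b1, -0.10 for Nr0b2 and -0.08 for the Cyp8b1 to Cyp7a1 ratio. DESeq2 without knockout library 1, chosen after seeing the data, called 1 member, Cyp7b1 (-1.01), and 3 other pathway genes, Abcc2, Ephx1 and Slco1a4, among 1058. Over all genes 28 were called, against 130 by DESeq2, 14 with the coverage covariate (chosen after seeing the data, Cyp7b1 at -1.94), and 13 to 114 with 1 library left out (114 without knockout library 1, 93 without wild-type library 3). Single omissions gave 0 to 1 other pathway genes, and log2 fold changes of -1.08 to -0.36 for Cyp7a1, -1.01 to 1.28 for Cyp7b1, -0.76 to 0.11 for Cyp8b1, -0.18 to 0.43 for Nr0b2 and -1.48 to 0.13 for the Cyp7a1 to Cyp7b1 ratio. The sign turned for Cyp7b1 and this ratio without knockout library 1. The coverage covariate moved Cyp8b1 to -1.11 and Nr0b2 to 0.75. The cause was not tested.

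The replicate number as a block left 8 called genes and no member. Without knockout library 1 as well, chosen after seeing the data, the block gave 56 called genes and Cyp7b1 at -1.14 (edgeR adjusted p = 0.331). Deviations of same-numbered libraries from their group means had correlations of 0.12, -0.15 and -0.15 for numbers 1 to 3. Pairs of different numbers ran from -0.28 to 0.31. With so few pairs these values cannot tell whether same-numbered libraries share more than a number. Knockout library 1 holds the fewest reads, and with 3 wild-type libraries the spread of Cyp7a1, Cyp8b1 and Nr0b2 limits what could be called.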
